A study of Homo sapiens with 24 samples.

Results

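The untreated libraries of the human breast cancer cell lines MDA-MB-453 and MDA-MB-231 were set against each other to describe what each line expressed before any drug was given. They were chosen by their labels, as the cultures that received the solvent DMSO for 5 days, and are 6 of the 24 libraries of the series, 3 of each line. The other 18 libraries were from the same lines after abemaciclib, an inhibitor of the kinases CDK4 and CDK6, fulvestrant, an antagonist of the oestrogen receptor, or both. Each line was labelled wild type and stands for the tumour of 1 person, so the 3 replicates were cultures of 1 line and not separate tumours. MDA-MB-231 was grown in RPMI-1640 with serum, GlutaMax and HEPES and MDA-MB-453 in DMEM with serum, so that line and medium cannot be told apart.

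Breast cancers without oestrogen receptor fall into groups with unlike gene programmes. The luminal apocrine group keeps the transcription factors of the secretory (luminal) cells of the breast and of apocrine glands, and MDA-MB-453 is a usual model of it. MDA-MB-231 is a usual model of the mesenchymal group, in which cells lose the junctions of an epithelium and express the cytoskeleton, matrix and proteases of motile cells.

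RNA was counted as tags from the 3′ ends of transcripts. The 6 libraries held between 3280637 and 3653867 counts, and levels are given as CPM, a gene's counts scaled to a library total of 1000000, as mean ± SD with n = 3 cultures. A floor of 3 counts over the 3 libraries of a line equals 0.300 CPM for MDA-MB-231 libraries, or 0.281 CPM for those of MDA-MB-453, and a gene with no count in one line is given as at least the fold over that floor. Mitochondrially encoded genes took 8.83% ± 0.213 of MDA-MB-231 counts, against 15.2% ± 0.650 in MDA-MB-453. Across the genes tested, log2 CPM correlated at 0.978 to 0.982 between cultures of a line and at 0.589 to 0.593 between lines, a description over genes. No library stood apart from the other 2 of its line. Counting by strand is not given in the sources used here, and 4683 of the genes tested overlap an exon on the opposite strand.

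Most of the genes that could be tested differed between the lines. Of 11115 genes tested with edgeR's quasi-likelihood test, 8142 (73.3%) passed a Benjamini-Hochberg adjusted p below 0.05, 4042 (36.4%) higher in MDA-MB-453 and 4100 (36.9%) higher in MDA-MB-231. A difference of at least 4-fold was held by 2666 (24.0%), 1425 (12.8%) higher in MDA-MB-453 and 1241 (11.2%) higher in MDA-MB-231. Passing the test is therefore the usual state of a gene in this comparison, and the size of a difference carries more than its call. Only 8165 of the genes tested reached the filter level in every library of both lines. The other genes entered the test mainly through the line where they were high, so counts over listed genes are descriptions, set beside these shares.

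**Figure D1:**
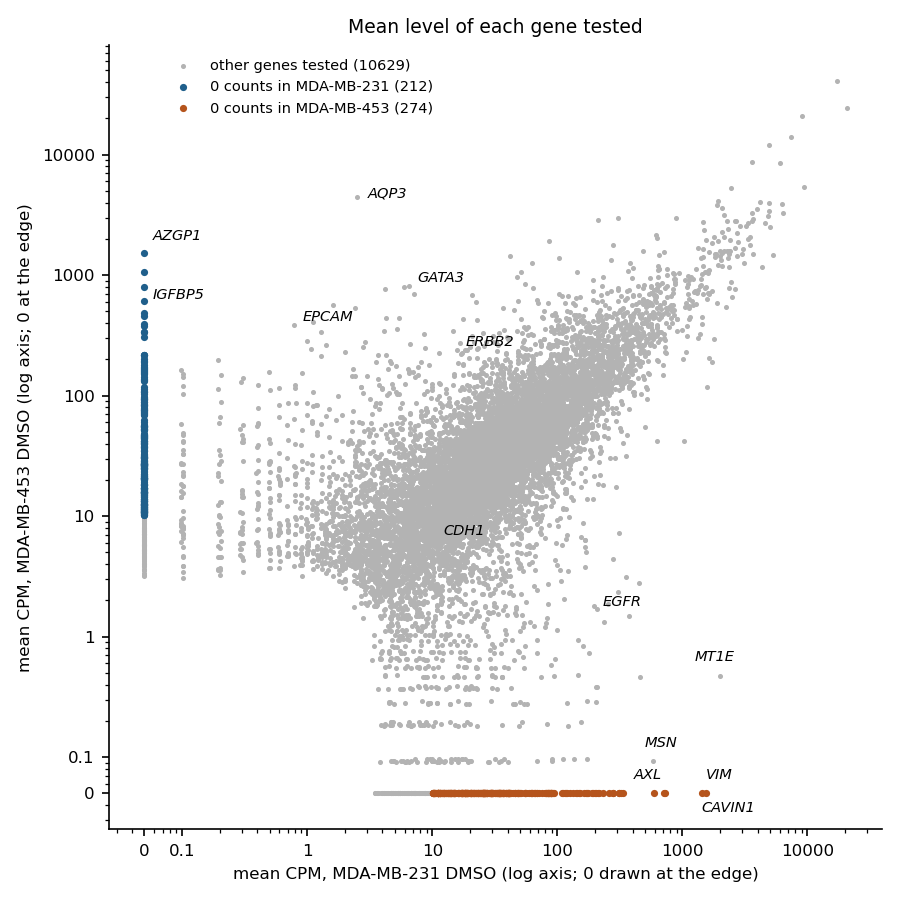
Mean CPM of each gene tested in the 3 DMSO cultures of MDA-MB-231 (horizontal) and of MDA-MB-453 (vertical), on log axes with 0 drawn at the edge. The 212 genes with no count in MDA-MB-231 and at least 10 CPM in MDA-MB-453 are blue, and the 274 genes of the opposite kind are orange, with VIM, CAVIN1 and AXL at the far right.

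The tested markers of the luminal apocrine group were, but for 1, higher in MDA-MB-453, though many were expressed in MDA-MB-231 too. GATA3, a zinc finger factor that maintains luminal cells, had 776, 829 and 816 CPM in MDA-MB-453 against 4.27, 8.47 and 6.67 CPM in MDA-MB-231 (log2 fold change 7.01 ± 0.118 (SE), adjusted p = 5.87e-35). FOXA1, the pioneer factor that opens chromatin for hormone receptors, had 171, 194 and 209 CPM against 4.57, 1.17 and 4.85 CPM. The ranges of the lines were far apart for each of these genes.

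Of the 32 markers listed for the luminal apocrine group, 24 were tested, 23 were called and all 23 of these were higher in MDA-MB-453, 20 of them at least 4-fold. Their median log2 fold change was 5.27, beside -0.01 over all genes tested. Of the 12 markers that reached the filter level in both lines, 12 were higher in MDA-MB-453, among them the fatty acid synthase gene FASN (280.5 ± 23.9 against 1783 ± 88.8 CPM, MDA-MB-231 first) and the hormone-responsive chaperone gene FKBP5 (44.9 ± 3.09 against 512 ± 22.9 CPM). The list had exceptions. SCGB2A2 (mammaglobin) averaged only 3.93 ± 1.45 CPM in MDA-MB-453 and was not tested, AGR3, GGT1 and ALOX15B had no count in either line, and DHRS2 was not called (3.59 ± 1.59 against 2.44 ± 1.54 CPM).

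The mesenchymal markers showed the opposite picture. VIM (vimentin, an intermediate filament protein) had 1400, 1496 and 1722 CPM in MDA-MB-231 and no count in MDA-MB-453, which is at least 5482-fold higher. CAVIN1, a coat protein of caveolae, had 1466, 1375 and 1424 CPM against no count, and AXL, a receptor tyrosine kinase, 576, 581 and 630 CPM against no count. None of these genes had a count in the 9 drug-treated libraries of MDA-MB-453 either.

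Of 36 mesenchymal markers, 23 were tested and 23 called, 21 of them higher in MDA-MB-231. Their median log2 fold change was -10.10, or -7.88 with genes at 0 set to their bound. With DESeq2's test, run without the filter and so also on markers of low count, the median was -7.51. Since 20 of the 23 reached the filter level only in MDA-MB-231, these had to differ. MSN (moesin, which ties actin to the membrane) had 5821 counts in MDA-MB-231, against 1 in MDA-MB-453. Of the 3 markers expressed in both lines, LGALS1 (galectin-1) differed little, at 542 ± 32.9 CPM in MDA-MB-231, against 452 ± 27.8 CPM in MDA-MB-453 (log2 fold change -0.20 ± 0.0671 (SE), adjusted p = 0.00872), a call that was lost without MDA-MB-231 replicate 2 (-0.15) or MDA-MB-453 replicate 1 (-0.13). The other 2 were higher in MDA-MB-453: THBS1 (thrombospondin-1, a matrix glycoprotein; 45.1, 31.2 and 36.7 CPM in MDA-MB-231 against 122, 123 and 117 CPM) and TPM1 (a tropomyosin; 67.4 ± 8.42 against 165 ± 16.1 CPM). Several textbook genes of the mesenchymal state were scarce in MDA-MB-231 too, with FN1 (fibronectin) at 5.83 ± 4.12 CPM, CDH2 (N-cadherin) at 0.609 ± 0.807 CPM, and TWIST1 and TWIST2 at 0 counts in both lines.

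The basal keratin genes KRT5 and KRT14 were near 0 in both lines. They had no count in MDA-MB-231 and averaged 1.57 ± 1.30 and 0.462 ± 0.799 CPM in MDA-MB-453, and TP63 had no count in either. Of 18 basal markers 8 were tested and called, 5 higher in MDA-MB-231, led by FOXC1 (57.5 ± 7.48 against 0.276 ± 0.277 CPM), the laminin chain LAMB3 (308 ± 5.44 against 2.37 ± 1.27 CPM) and KRT81 (41.5 ± 5.60 against 3.17 ± 0.918 CPM), and 3 higher in MDA-MB-453, namely CDH3, ITGB4 (1.62 ± 1.85 against 22.6 ± 4.63 CPM) and ITGA6 (57.7 ± 3.32 against 91.0 ± 4.47 CPM). Of these 8, 4 reached the filter level only in MDA-MB-231 and 2 only in MDA-MB-453, so their direction was set by the filter. The 2 that reached it in both lines were split 1 to 1. Simple keratins were expressed by both lines: KRT8 was at 100.4 ± 4.91 and 283 ± 15.2 CPM, and KRT18 at 308 ± 2.34 and 781 ± 35.5 CPM, with KRT19 further apart at 86.2 ± 14.1 and 1904 ± 74.6 CPM.

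Of 30 markers of blood, vessel, stromal, nerve, muscle, fat and liver cells, 19 had no count in any of the 6 libraries and 2 were tested. Their summed level was 13.9 to 16.4 CPM in MDA-MB-231 and 34.2 to 44.6 CPM in MDA-MB-453. Nearly all of the latter was COL1A1, a collagen chain, at 39.4 ± 5.11 CPM in MDA-MB-453 and 5.67 ± 1.92 CPM in MDA-MB-231. CD68 was higher in MDA-MB-231, at 3.99 ± 0.364 CPM against no count.

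Most tested transcription factors of the luminal lineage were higher in MDA-MB-453, and 11 of the 25 reached the filter level in both lines. Of 31 listed, 25 were tested and 23 called, 22 higher in MDA-MB-453 and all 22 at least 4-fold, with a median log2 fold change of 5.37. The AP-2 factors were among them: TFAP2B had 461, 450 and 458 CPM against no count (at least 1522-fold higher), and TFAP2A had 524, 508 and 561 CPM against 3.05, 2.34 and 1.82 CPM (log2 fold change 7.83 ± 0.142 (SE)). TFAP2C was present in MDA-MB-231 as well, at 8.63 ± 3.35 CPM against 103 ± 11.0 CPM. The 3 AP-2 genes shared a direction and differed in the level that MDA-MB-231 kept.

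The ETS factors of epithelia behaved alike. EHF had 218 ± 10.7 CPM in MDA-MB-453 and no count in MDA-MB-231, ELF3 had 113 ± 14.7 CPM and 2 counts, and SPDEF had 193, 201 and 196 CPM and 2 counts, a count ratio of 984.5 for SPDEF (exact 95% interval 272 to 8135, counting error only). GRHL2, a guardian of epithelial junction genes, was at 44.9 ± 4.94 CPM against no count, and the repressors OVOL1 and OVOL2, which help to maintain epithelia, at 15.8 ± 1.03 and 13.4 ± 1.12 CPM against no count. XBP1, the factor of the secretory stress response, was high in MDA-MB-453 and still present in MDA-MB-231 (1431 ± 33.8 and 41.6 ± 3.15 CPM), as was the homeobox gene IRX3 (956 ± 80.3 and 47.5 ± 0.901 CPM). The exceptions were SOX9, a factor of progenitor cells, which was higher in MDA-MB-231 (51.6 ± 6.69 against 4.93 ± 2.83 CPM), and KLF5, which missed the threshold (19.5 ± 6.83 against 12.2 ± 2.21 CPM, adjusted p = 0.0501). Without MDA-MB-231 replicate 2 or 3 or MDA-MB-453 replicate 2, KLF5 was called higher in MDA-MB-231, with log2 fold changes of -0.79, -0.69 and -0.74. ESR1, the oestrogen receptor gene, had no count in any of the 6 libraries.

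Among 45 factors of the mesenchymal and AP-1 list, 35 were tested and 31 called. MDA-MB-231 had the higher level for 22 of these calls, MDA-MB-453 for 9, and the median log2 fold change was -1.62. For 13 of the 35 the filter level was reached by MDA-MB-231 alone, and for 2 by MDA-MB-453 alone. The 19 factors that reached it in both lines were split almost evenly, 9 being higher in MDA-MB-231, 7 in MDA-MB-453. The AP-1 subunits were split. FOSL1 (FRA-1) had 138, 138 and 152 CPM in MDA-MB-231 and no count in MDA-MB-453, and FOSL2 was at 91.1 ± 6.29 against 25.4 ± 1.10 CPM. JUN was less than 2-fold higher in MDA-MB-231 (181 ± 8.42 against 99.2 ± 0.608 CPM), whereas JUNB (27.9 ± 3.38 against 127 ± 15.2 CPM) and JUND (48.2 ± 6.03 against 196 ± 22.2 CPM) were higher in MDA-MB-453. FOS was not tested, at 2.19 ± 0.633 and 2.71 ± 0.268 CPM. So MDA-MB-231 was the line with FOSL1, and MDA-MB-453 the line with more JUNB and JUND.

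Several ETS factors were higher in MDA-MB-231. ETS1 had 84.4, 88.2 and 79.4 CPM against no count, ELK3 was at 114 ± 11.4 against 2.04 ± 1.84 CPM, and the PEA3 members ETV1, ETV4 and ETV5 lay at 36.7 to 84.6 CPM against 1.04 to 2.75 CPM. Of the TEAD factors, which carry the output of the Hippo pathway, TEAD1 had 137 ± 1.90 CPM in MDA-MB-231 and 1 count in MDA-MB-453, TEAD2 and TEAD3 were higher in MDA-MB-453 (log2 fold changes 0.77 and 1.22), and TEAD4 was not called. Their coactivator YAP1 did not pass the test (43.6 ± 0.742 against 38.5 ± 7.05 CPM, adjusted p = 0.533), and its paralogue WWTR1 was less than 2-fold higher in MDA-MB-231 (46.7 ± 5.37 against 26.5 ± 5.60 CPM). The chromatin protein genes HMGA2 (84.7 ± 7.44 CPM against no count) and HMGA1 (1741 ± 64.0 against 192 ± 19.5 CPM) were both higher in MDA-MB-231.

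ZEB1, the repressor of epithelial genes, had 37.5, 37.4 and 47.3 CPM in MDA-MB-231 and no count in MDA-MB-453, and ZEB2 and SNAI1 were at 7.25 ± 3.76 and 3.00 ± 0.354 CPM against no count, and were not tested. The hypoxia factor EPAS1 went the other way, at 0.693 ± 0.438 CPM in MDA-MB-231, against 30.3 ± 1.86 CPM in MDA-MB-453. The orphan nuclear receptors NR2F1 and NR2F2, close relatives, were opposed: NR2F1 was at 111 ± 11.1 against 385 ± 24.2 CPM and NR2F2 at 628 ± 34.2 against 196 ± 4.25 CPM. A factor singled out after its values were seen, was FOXA2, the relative of FOXA1 known from endoderm, with 108, 121 and 127 CPM in MDA-MB-231 and no count in MDA-MB-453. FOXA2 was thus found in MDA-MB-231 only, while FOXA1 was far higher in MDA-MB-453 and low, though not absent, in MDA-MB-231.

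**Figure D2:**
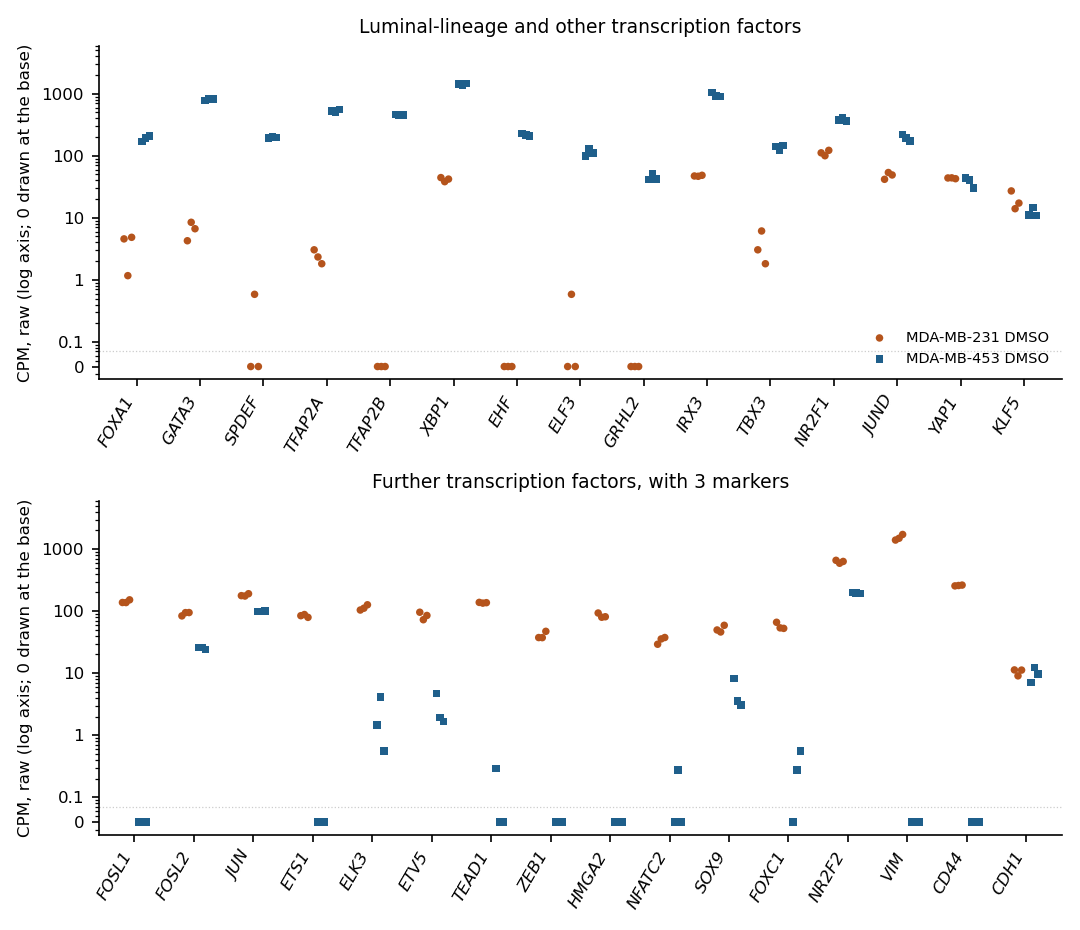
CPM of transcription factors and 3 markers in each DMSO culture of MDA-MB-231 (orange circles) and MDA-MB-453 (blue squares), on a log axis with 0 drawn at the base below the dotted line. TFAP2B, EHF and GRHL2 lie at 0 in the 3 MDA-MB-231 cultures and FOSL1, ETS1, ZEB1, HMGA2, VIM and CD44 at 0 in the 3 MDA-MB-453 cultures, while the points of YAP1, KLF5 and CDH1 overlap or lie close together.

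Nuclear receptors were called about as often as genes in general. Of 48 listed, 22 were tested and 16 called, 10 higher in MDA-MB-453 and 6 higher in MDA-MB-231. That is 45.45% and 27.27% of those tested, beside 36.4% and 36.9% of all genes tested. Their median log2 fold change was 0.34, and 14 had no count in either line. The thyroid hormone receptor gene THRB (1.48 ± 0.991 against 25.5 ± 2.13 CPM) and NR2F6 (30.2 ± 6.78 against 155 ± 9.31 CPM) were higher in MDA-MB-453, together with the vitamin D receptor gene VDR (24.3 ± 9.37 against 92.9 ± 8.97 CPM). PPARG, a regulator of fat cells, was found only in MDA-MB-231 (16.4 ± 4.18 CPM against no count), and the clock gene NR1D2 was higher there (26.4 ± 7.25 against 7.40 ± 1.42 CPM). The glucocorticoid receptor gene NR3C1, was present in both (106 ± 7.73 in MDA-MB-231, 74.6 ± 4.51 CPM in MDA-MB-453).

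Genes of epithelial junctions and of the epithelial surface were mostly higher in MDA-MB-453, but not E-cadherin. CDH1, which encodes it, had 11.3, 9.05 and 11.2 CPM in MDA-MB-231 and 7.01, 12.3 and 9.69 CPM in MDA-MB-453, ranges that overlap (log2 fold change -0.05 ± 0.324 (SE), adjusted p = 0.897). EPCAM, an epithelial adhesion molecule, had 377, 389 and 387 CPM in MDA-MB-453 against 0.610, 1.75 and 0 CPM. The claudins, which seal tight junctions, went with it: CLDN3 was at 163 ± 6.39 CPM against 1 count, CLDN7 at 261 ± 10.7 against 1.41 ± 0.883 CPM and CLDN4 at 147 ± 8.09 against 7.64 ± 3.77 CPM. MDA-MB-453 therefore had claudins and EPCAM without a higher level of CDH1 than MDA-MB-231.

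Of 46 epithelial adhesion genes, 39 were tested and 37 called, 32 higher in MDA-MB-453 (26 at least 4-fold) and 5 higher in MDA-MB-231, with a median log2 fold change of 4.32 (4.31 with genes at 0 set to their bound). Of the 18 that reached the filter level in both lines, 12 were higher in MDA-MB-453 and 4 in MDA-MB-231. MAL2 (612 ± 7.83 CPM) and RAB25 (161 ± 10.1 CPM), of apical transport, and ESRP1 (113 ± 4.64 CPM), which splices epithelial transcript forms, had no count in MDA-MB-231. The 5 higher in MDA-MB-231 were DSP (42.4, 60.7 and 49.1 CPM against 5.84, 6.29 and 8.59 CPM), DSG2 and PKP2, all of desmosomes, with CLDN12 (10.0 ± 1.60 against 4.23 ± 1.11 CPM) and CTNNB1 (β-catenin; 253 ± 15.6 against 120 ± 10.9 CPM). The other cadherin partners diverged, with CTNNA1 (α-catenin) not called and JUP (plakoglobin) at 175 ± 4.53 CPM in MDA-MB-453 against 5.09 ± 0.396 CPM.

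The repressors ZEB1 and SNAI1 bind the E-box, so the promoters of the 4 epithelial adhesion genes with more than 1 copy of it are shown, out of the 23 of 46 that had a RefSeq promoter. As fewer than 80% of the list matched, a comparison of shares between lists is void and none is given. The motif was CACCTG or CAGGTG, which are the same letters on opposite strands. It was searched for in RefSeq promoter windows of GRCh38.p14 (250 bases before to 50 after the start). Of all such windows, 20.6% hold it at least 1 time and 3.47% hold 2 or more copies. The motif was found 5 times in CRB3 and 2 times each in RAB25, DSP and DSG2. The 250 bases before the start follow, with the motif in capitals: CRB3 at chr19:6464021-6464270, RAB25 at chr1:156060910-156061159 (where the other copy lies after the start), DSP at chr6:7541421-7541670 and DSG2 at chr18:31497927-31498176, all on the + strand.
CRB3: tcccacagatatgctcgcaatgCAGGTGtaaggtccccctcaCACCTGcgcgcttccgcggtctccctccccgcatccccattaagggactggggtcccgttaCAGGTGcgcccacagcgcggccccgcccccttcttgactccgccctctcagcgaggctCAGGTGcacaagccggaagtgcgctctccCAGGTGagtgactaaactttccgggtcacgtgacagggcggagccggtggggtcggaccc
RAB25: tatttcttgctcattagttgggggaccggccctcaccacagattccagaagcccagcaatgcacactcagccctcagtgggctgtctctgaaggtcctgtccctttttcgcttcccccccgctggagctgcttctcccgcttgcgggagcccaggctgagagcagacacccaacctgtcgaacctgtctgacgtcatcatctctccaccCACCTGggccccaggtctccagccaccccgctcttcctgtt
DSP: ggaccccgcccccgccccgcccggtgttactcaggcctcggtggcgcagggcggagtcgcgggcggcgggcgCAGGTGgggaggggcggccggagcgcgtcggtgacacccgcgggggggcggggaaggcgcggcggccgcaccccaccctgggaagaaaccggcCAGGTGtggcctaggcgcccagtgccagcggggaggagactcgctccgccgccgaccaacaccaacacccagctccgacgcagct
DSG2: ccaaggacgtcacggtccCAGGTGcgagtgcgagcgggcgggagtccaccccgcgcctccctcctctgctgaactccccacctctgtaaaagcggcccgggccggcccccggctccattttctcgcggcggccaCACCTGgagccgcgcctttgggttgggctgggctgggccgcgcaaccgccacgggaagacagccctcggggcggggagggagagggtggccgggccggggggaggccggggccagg
These promoters did not share a direction. CRB3, an apical polarity gene, had 14.9, 10.4 and 18.0 CPM in MDA-MB-453 and RAB25 had 168, 149 and 166 CPM, both with no count in MDA-MB-231, whereas DSP was higher in MDA-MB-231 and DSG2 was at 40.8 ± 4.08 CPM there against 26.0 ± 7.97 CPM in MDA-MB-453 (adjusted p = 0.00799), a call lost without MDA-MB-453 replicate 3 (log2 fold change -0.40). A match is a description of letters, and binding was not measured here.

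Integrins and other adhesion receptors split in both directions. Of 47 listed, 26 were tested and 25 called, 16 higher in MDA-MB-453 and 9 in MDA-MB-231, with a median log2 fold change of 0.96. The 16 and 9 are 61.54% and 34.62% of those tested, beside 36.4% and 36.9% of all genes tested. CD44, the hyaluronan receptor, had 259 ± 3.77 CPM in MDA-MB-231 and no count in MDA-MB-453. CDH4 (R-cadherin) had 222, 201 and 215 CPM in MDA-MB-231 against no count, and the fibronectin receptor chain ITGA5 was at 20.1 ± 3.94 CPM against no count. Higher in MDA-MB-453 were the tetraspanins CD82 (2.00 ± 1.98 against 229 ± 21.9 CPM) and CD9 (103 ± 4.39 against 1382 ± 66.9 CPM), the collagen receptor DDR1 (6.66 ± 3.94 against 269 ± 19.7 CPM), the laminin receptor BCAM (4.33 ± 2.80 against 101 ± 0.667 CPM) and the integrin chains ITGAV and ITGB5 (log2 fold changes 2.27 and 1.48). The common partner ITGB1 was higher in MDA-MB-231 (42.6 ± 6.90 against 14.9 ± 4.60 CPM).

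**Figure D3:**
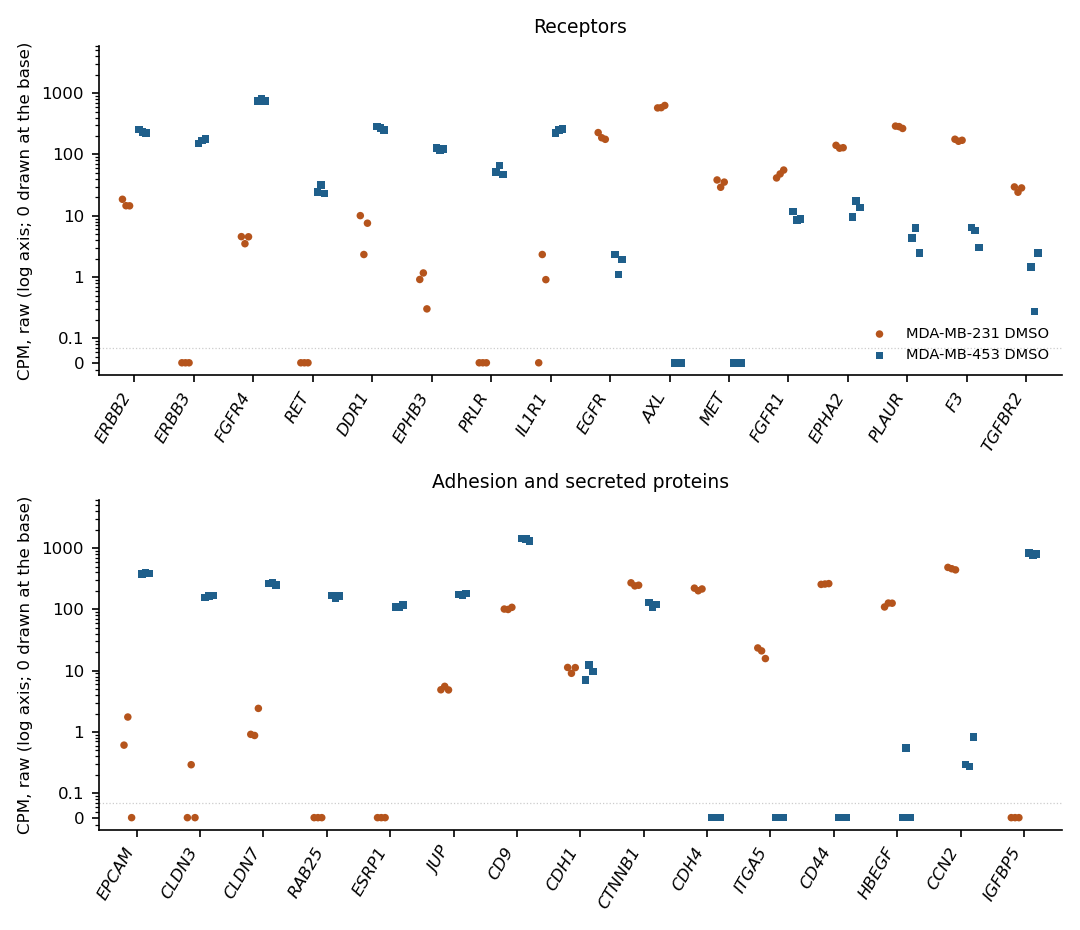
CPM of receptors (top) and of adhesion and secreted proteins (bottom) in each DMSO culture of MDA-MB-231 (orange circles) and MDA-MB-453 (blue squares), on a log axis with 0 drawn at the base. The lines hold different receptors, with ERBB3, RET and PRLR at 0 in MDA-MB-231 and AXL and MET at 0 in MDA-MB-453, and CDH1 is a gene whose points overlap.

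Receptor tyrosine kinases were nearly balanced in number and opposed in kind. Of 47 listed, 24 were tested and 20 called, 11 higher in MDA-MB-453 and 9 higher in MDA-MB-231, with 10 and 8 of them at least 4-fold and a median log2 fold change of -0.11. Without MDA-MB-231 replicate 1 that median was 0.07, and without MDA-MB-453 replicate 3 it was 0.12. The ERBB family was divided: ERBB2 had 256, 234 and 222 CPM in MDA-MB-453 against 18.6, 14.6 and 14.5 CPM (log2 fold change 3.96 ± 0.123 (SE)), and ERBB3 had 150, 170 and 180 CPM against no count. EGFR had 228, 188 and 177 CPM in MDA-MB-231 against 2.34, 1.09 and 1.94 CPM in MDA-MB-453 (log2 fold change -6.70 ± 0.200 (SE), adjusted p = 3.79e-27).

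Ligands of these receptors lay on the side of EGFR. HBEGF, an EGFR ligand, had 109, 127 and 126 CPM in MDA-MB-231 and 2 counts in MDA-MB-453, EREG was at 17.7 ± 0.120 CPM against no count, and AREG at 6.50 ± 0.947 against 2.52 ± 1.93 CPM. The call of AREG was lost without MDA-MB-231 replicate 3 (log2 fold change -1.17) or MDA-MB-453 replicate 1 or 2 (-1.07 and -0.90). NRG1, the ligand of ERBB3, had 47.5 ± 2.22 CPM in MDA-MB-231 but no count in MDA-MB-453, the line with ERBB3. Ligand and receptor were thus in the same line for EGFR and in different lines for ERBB3.

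The remaining kinases divided in the same way. FGFR4 had 752, 803 and 751 CPM in MDA-MB-453 against 4.57, 3.50 and 4.54 CPM, while FGFR1 was higher in MDA-MB-231 (48.5 ± 7.15 against 9.68 ± 1.75 CPM). RET, the receptor of glial cell-derived factors, and ROR2 had 26.3 ± 4.73 and 13.1 ± 1.09 CPM in MDA-MB-453 and no count in MDA-MB-231, and ROR1, the relative of ROR2, was at 10.2 ± 0.906 CPM in MDA-MB-231 against 0.182 ± 0.316 CPM. MET, the receptor of hepatocyte growth factor, had 38.4, 29.2 and 35.5 CPM in MDA-MB-231 and no count in MDA-MB-453. The ephrin receptors EPHA2 and EPHB2 were higher in MDA-MB-231 (132 ± 7.73 against 13.6 ± 3.94 CPM and 66.4 ± 6.08 against 3.59 ± 1.70 CPM) and EPHB3 in MDA-MB-453 (123 ± 5.17 against 0.795 ± 0.445 CPM). TYRO3, INSR, PTK7 and RYK were not called, though PTK7 was called higher in MDA-MB-231 without MDA-MB-231 replicate 2 or MDA-MB-453 replicate 2 (log2 fold change -0.47 in each case).

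Of 83 cytokine, growth factor and G protein-coupled receptors, 65 were tested and 51 called, 21 higher in MDA-MB-453 and 30 higher in MDA-MB-231. The 21 and 30 are 32.31% and 46.15% of those tested, beside 36.4% and 36.9% of all genes tested. The median log2 fold change was -0.32. Of the 65, 25 reached the filter level only in MDA-MB-231 and 10 only in MDA-MB-453. Of the 29 that reached it in both lines, 12 were higher in MDA-MB-453 and 7 in MDA-MB-231. The prolactin and growth hormone receptors PRLR (54.6 ± 9.84 CPM) and GHR (41.8 ± 6.30 CPM) and NOTCH3 (52.8 ± 6.86 CPM) had no count in MDA-MB-231. IL1R1, the interleukin-1 receptor, had 223, 250 and 263 CPM in MDA-MB-453 against 0, 2.34 and 0.909 CPM. The lines were well separated for each of these.

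Among those higher in MDA-MB-231 were receptors of coagulation, plasminogen activation and the interleukin-6 family. PLAUR, the urokinase receptor, had 290, 285 and 266 CPM against 4.38, 6.29 and 2.49 CPM, tissue factor (F3) was at 171 ± 6.50 against 5.07 ± 1.79 CPM, and the protein C receptor PROCR at 55.4 ± 9.38 CPM against no count. TNFRSF10D, a decoy receptor for TRAIL, and the adenosine receptor ADORA2B had 21.2 ± 3.14 and 11.5 ± 0.687 CPM and no count in MDA-MB-453. IL6ST (21.1 ± 4.29 against 0.374 ± 0.421 CPM), LIFR and OSMR were higher in MDA-MB-231, while IL6R was higher in MDA-MB-453 (10.4 ± 2.49 against 25.5 ± 4.38 CPM). TGFBR2 was at 27.4 ± 2.82 CPM in MDA-MB-231, against 1.41 ± 1.11 CPM in MDA-MB-453, with TGFBR1 not called (adjusted p = 0.536).

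Secreted cytokines and growth factors differed in kind as well. Of 78 listed, 44 were tested and 39 called, 17 higher in MDA-MB-453 and 22 higher in MDA-MB-231, with a median log2 fold change of -1.08. The 17 and 22 are 38.64% and 50% of those tested, beside 36.4% and 36.9% of all genes tested. Of the 44, 19 reached the filter level only in MDA-MB-231 and 10 only in MDA-MB-453. Of the 14 that reached it in both lines, 7 were higher in MDA-MB-453 and 3 in MDA-MB-231. CCN2 and CCN1, matrix-bound proteins and known targets of YAP and TEAD, were at 462 ± 21.5 against 0.466 ± 0.317 CPM and 1022 ± 42.4 against 42.1 ± 4.40 CPM, MDA-MB-231 first. PTN (pleiotrophin) had 25.9 ± 4.12 CPM and IL11 50.1 ± 5.35 CPM in MDA-MB-231, with no count and 3 counts in MDA-MB-453. The TGF-β ligands were divided by isoform, with TGFB1 (9.78 ± 0.688 CPM against no count) and TGFB2 (11.7 ± 2.25 CPM against 1 count) in MDA-MB-231 and TGFB3 in MDA-MB-453 (57.9 ± 4.66 CPM against 1 count).

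Other ligands of MDA-MB-453 were INHBB, the activin B chain (2.79 ± 0.910 against 254 ± 17.8 CPM), the Notch ligand JAG2 (0.801 ± 0.928 against 115 ± 10.8 CPM), WNT7B (3.99 ± 0.856 against 114 ± 3.53 CPM) and the chemokine CXCL16 (22.8 ± 6.59 CPM against 2 counts). BMP4 was expressed in both, at 119 ± 3.56 and 245 ± 24.7 CPM. IL6, CXCL8, CXCL1, IL1A and IL1B, inflammatory cytokines, had no count in any of the 6 DMSO libraries, where the floor is 0.300 CPM in MDA-MB-231.

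Proteases, their inhibitors and matrix proteins were mostly of MDA-MB-231. Of 83 listed, 50 were tested and 46 called, 36 higher in MDA-MB-231 (30 at least 4-fold) and 10 in MDA-MB-453, with a median log2 fold change of -4.70 (-4.48 with genes at 0 set to their bound). Here 28 of the 50 reached the filter level only in MDA-MB-231, and of the 16 that did so in both lines 8 were higher in MDA-MB-231, 6 in MDA-MB-453. PLAU (urokinase; 49.4 ± 6.54 CPM), TIMP2 (112 ± 8.03 CPM), TFPI (82.7 ± 15.0 CPM), MMP14 (66.2 ± 5.17 CPM) and LOXL2 (48.3 ± 7.74 CPM) had no count in MDA-MB-453. The urokinase receptor and its ligand were thus in the same line.

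The binding proteins of insulin-like growth factors were divided between the lines. IGFBP5 had 837, 768 and 796 CPM and IGFBP2 204, 193 and 208 CPM in MDA-MB-453, and neither had a count in MDA-MB-231. IGFBP4 had 300.2, 317 and 322 CPM in MDA-MB-231 against 5.55, 6.84 and 9.42 CPM in MDA-MB-453. IGFBP3, IGFBP6 and IGFBP7 were also higher in MDA-MB-231 (21.8 ± 0.991, 9.00 ± 1.14 and 36.6 ± 7.33 CPM against 1.95 ± 1.19, 0.459 ± 0.422 and 0 CPM). LGALS3 (galectin-3; 19.7 ± 4.93 against 206 ± 12.0 CPM) and the lysosomal protease CTSD (90.7 ± 3.28 against 465 ± 27.3 CPM) were among the 10 higher in MDA-MB-453.

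Of the 31 apocrine and mammary secretory proteins, 8 were tested and 7 called, all 7 higher in MDA-MB-453, with a median log2 fold change of 9.83 (7.28 with genes at 0 set to their bound). That median rests on few genes and on fitted values of genes at 0, and was 8.21 without MDA-MB-231 replicate 3. Where listed genes of low count were kept, it was 3.66 with DESeq2's test and 4.30 with edgeR and no filter. Of the 8 genes tested, 6 reached the filter level only in MDA-MB-453, so the direction of these was set by the filter. Of the 2 that reached it in both lines, 1 was called higher in MDA-MB-453. AZGP1, a zinc-binding glycoprotein of apocrine secretions, had 1609, 1560 and 1439 CPM in MDA-MB-453 and no count in MDA-MB-231. SLPI (93.4 ± 4.42 CPM), TFF3 (55.4 ± 2.82 CPM), PIP, the prolactin-induced protein (43.5 ± 4.38 CPM), and MUCL1 (23.7 ± 4.25 CPM) had none either. The milk proteins of the list were not found, since LALBA, CSN1S1, CSN2 and CSN3 had no count in either line. AZGP1, PIP, TFF3, AGR2 and SCGB2A2 are also on the list of luminal apocrine markers.

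**Figure D4:**
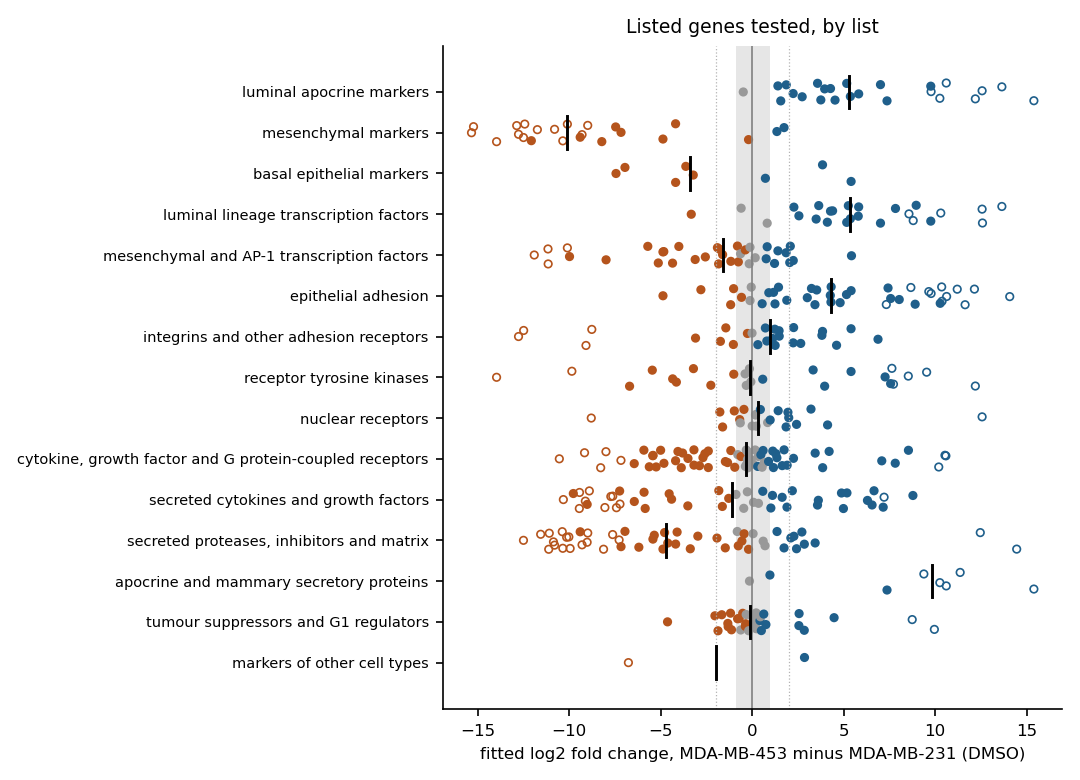
Fitted log2 fold change (MDA-MB-453 minus MDA-MB-231, DMSO) of each listed gene that was tested, 1 row per list. Points are blue where called higher in MDA-MB-453, orange where called higher in MDA-MB-231 and grey where not called, open where one line had no count (the fitted value is then no bound); black bars are list medians, the grey band holds the middle 50% of all genes tested and dotted lines mark 4-fold. Luminal, apocrine and epithelial adhesion lists lie to the right, mesenchymal and protease lists to the left, and receptors on both sides.

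Regulators of the G1 phase, on which abemaciclib acts, differed about as often as genes in general. Of 34 tumour suppressors and G1 regulators, 32 were tested and 23 called, 10 higher in MDA-MB-453 and 13 in MDA-MB-231, and 8 differed at least 4-fold, beside 73.3% and 24.0% of all genes tested. RB1, the retinoblastoma gene, had 56.7, 49.9 and 52.4 CPM in MDA-MB-231 and 58.7, 61.9 and 58.7 CPM in MDA-MB-453, and was not called (log2 fold change 0.24 ± 0.136 (SE), adjusted p = 0.113). CCND1 (cyclin D1) was not called either, at 543 ± 28.9 and 560 ± 12.8 CPM.

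Of the kinase partners of cyclin D1, CDK6 differed far more than CDK4. CDK6 had 172, 166 and 158 CPM in MDA-MB-231 against 7.01, 6.02 and 6.09 CPM in MDA-MB-453 (log2 fold change -4.62 ± 0.155 (SE), adjusted p = 1.51e-25), while CDK4 was at 255 ± 25.0 and 191 ± 8.64 CPM. CDKN2A, whose products include the CDK4 and CDK6 inhibitor p16, had 34.3 to 36.5 CPM in the 3 cultures of MDA-MB-453 and no count in MDA-MB-231. Counts per gene from 3′ ends do not tell which of its transcripts was present. The inhibitor gene CDKN1B (p27) was higher in MDA-MB-453 (11.8 ± 2.02 against 66.4 ± 7.62 CPM). Of the relatives of RB1, RBL1 was higher in MDA-MB-231 (29.4 ± 6.33 against 7.70 ± 1.50 CPM) and RBL2 in MDA-MB-453 (3.32 ± 2.14 against 23.0 ± 9.75 CPM). The tumour suppressor genes NF1 and NF2 were lower in MDA-MB-231 (10.1 ± 4.50 against 57.2 ± 9.70 CPM and 3.28 ± 0.995 against 71.0 ± 2.02 CPM).

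Among all genes with counts in both lines, the largest differences included genes outside the lists. AQP3, a channel for water and glycerol, had 4563, 4423 and 4344 CPM in MDA-MB-453 and 4.27, 1.46 and 1.82 CPM in MDA-MB-231 (log2 fold change 10.84 ± 0.114 (SE), adjusted p = 1.96e-41). TSPAN1, CRIP2, SUSD2 and METTL7A had 150, 142, 121 and 102 CPM in MDA-MB-453 and 1 count each in MDA-MB-231, C1orf116 had 149 CPM and 2 counts, and CLDN3, SPDEF, ELF3 and EPCAM complete the 10. The epithelial genes described above thus made up 4 of these 10.

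In the other direction MT1E, a metallothionein that binds zinc and copper, had 1996 ± 105 CPM in MDA-MB-231, against 0.476 ± 0.347 CPM in MDA-MB-453 (log2 fold change -11.89 ± 0.142 (SE)). Its close relatives MT2A (5324 ± 165 against 1461 ± 45.5 CPM) and MT1X (29.6 ± 5.60 against 5.24 ± 1.29 CPM), named after their values were seen, were expressed in both lines. As metallothionein transcripts are much alike, reads may be shared among them. MSN, NEXN, TEAD1, CCN2, AFAP1-AS1, TGFBI, RAB31, IGF2BP2 and CCDC80 made up the rest, at 90.3 to 582 CPM in MDA-MB-231 and at most 5 counts in MDA-MB-453. AFAP1-AS1 overlaps AFAP1 on the opposite strand, and AFAP1 itself was at 4.50 ± 1.11 against 0.286 ± 0.292 CPM.

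Some genes were silent in one line, taken here as 0 counts in its 3 DMSO libraries and at least 10 CPM in the other line. In MDA-MB-231 these were 212 of the 7817 genes that reached that level in MDA-MB-453 (2.71%), and in MDA-MB-453 274 of the 7863 of MDA-MB-231 (3.48%). They were chosen on these counts and carry no test. The cut at 10 CPM decides how many there are, with values in the other line running from 10.2 to 1536 CPM and from 10.1 to 1539 CPM, and with medians of 27.9 and 27.1 CPM. Protein-coding genes made up 195 and 246 of them.

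The drug-treated libraries, which the choice did not use, show how the silence held. Of the 212 genes, 141 had no count in any of the 9 treated MDA-MB-231 libraries, and of the 274 genes 198 had none in the 9 treated MDA-MB-453 libraries. None averaged 10 CPM in any treated group of the silent line. The highest such group means were 1.98 CPM, for TFF3 in MDA-MB-231, and 1.50 CPM, for CMTM7 in MDA-MB-453.

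The genes silent in MDA-MB-231 with the most counts in MDA-MB-453 were AZGP1, the calcium-binding protein gene S100A14 (1063 ± 18.0 CPM in MDA-MB-453), IGFBP5, MAL2, CLCA2 (483 ± 19.6 CPM), TFAP2B, the glucuronosyltransferase UGT2B11 (392 ± 5.17 CPM), the mitochondrial creatine kinases CKMT1A and CKMT1B (375 ± 16.1 and 337 ± 13.3 CPM), and the potassium channel KCNMA1 (335 ± 17.9 CPM). CKMT1A and CKMT1B are near-identical copies, and UGT2B11 belongs to a family of close relatives, so that reads may be divided among copies. KCNMA1 was the least strict of the 10, with 14 counts over the treated MDA-MB-231 libraries and no count in only 2 of the 9.

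The genes silent in MDA-MB-453 with the most counts in MDA-MB-231 were VIM, CAVIN1, ANKRD1 (728 ± 65.2 CPM in MDA-MB-231), a nuclear target of YAP, the microtubule protein gene MAP7D3 (714 ± 32.4 CPM), AXL, the scaffold gene AKAP12 (337 ± 11.6 CPM), LDHB (323 ± 30.8 CPM), the lipolysis inhibitor G0S2 (313 ± 10.9 CPM), KRTAP2-3 and the antiviral membrane gene IFITM3 (278 ± 2.82 CPM). All 10 had no count in the 9 treated MDA-MB-453 libraries. LDHB encodes the H subunit of lactate dehydrogenase, and LDHA, which encodes the M subunit, was expressed in both lines (650 ± 15.7 and 825 ± 98.8 CPM). The glutathione transferase GSTP1 (170 ± 16.8 CPM) and PSAT1, of serine synthesis (90.3 ± 13.6 CPM), singled out after their values were seen, were also at 0 in all 12 MDA-MB-453 libraries.

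Silent genes sometimes lay next to each other. Along the chromosomes, 10296 genes with a position averaged at least 5 CPM in a line, and of these 396 had at most 3 counts in MDA-MB-231, as did 481 in MDA-MB-453. Runs of at least 3 such genes in a row numbered 7 in MDA-MB-231, 4 in MDA-MB-453, with 40 genes in all. Gene copy number was not measured here. Positions are those of GENCODE v44 on GRCh38, matched by symbol.

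In MDA-MB-231 a run of 4 genes on chromosome 9 (GRCh38, 20658309 to 21995301) was made of FOCAD, KLHL9, MTAP and CDKN2A. MTAP, an enzyme of the methionine salvage pathway, had 14.6, 18.1 and 13.0 CPM in MDA-MB-453, and KLHL9, a ubiquitin ligase adaptor, 26.0, 32.0 and 16.3 CPM. Neither of these, nor CDKN2A, had a count in any of the 12 MDA-MB-231 libraries, while FOCAD had 2 counts in DMSO and 7 in the treated libraries. The genes on both sides were expressed in MDA-MB-231: MLLT3 was at 11.1 ± 1.26 CPM (not called, but called higher in MDA-MB-231 without MDA-MB-453 replicate 1, at a log2 fold change of -1.11) and CDKN2B-AS1, which has exons opposite CDKN2A, had 56.1, 49.9 and 58.2 CPM, more than in MDA-MB-453 (22.6 ± 5.99 CPM).

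In MDA-MB-453 the run of CAV2, CAV1 and MET lay on chromosome 7 (116287380 to 116798377). CAV1, the main coat protein of caveolae, had 198, 202 and 216 CPM in MDA-MB-231, and CAV2 18.8 ± 7.53 CPM, and none of the 3 genes had a count in the 12 MDA-MB-453 libraries. The neighbours TES (37.6 ± 3.47 against 96.7 ± 7.37 CPM) and CAPZA2 (34.4 ± 9.01 against 46.8 ± 2.24 CPM) were higher in MDA-MB-453, CAPZA2 no longer so by the test without MDA-MB-231 replicate 2 (log2 fold change 0.40). The other caveolar coat genes CAVIN1, CAVIN2 and CAVIN3, which lie elsewhere, were silent in MDA-MB-453 as well, with 42.8 CPM for CAVIN2 and 80.6 CPM for CAVIN3 in MDA-MB-231.

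**Figure D5:**
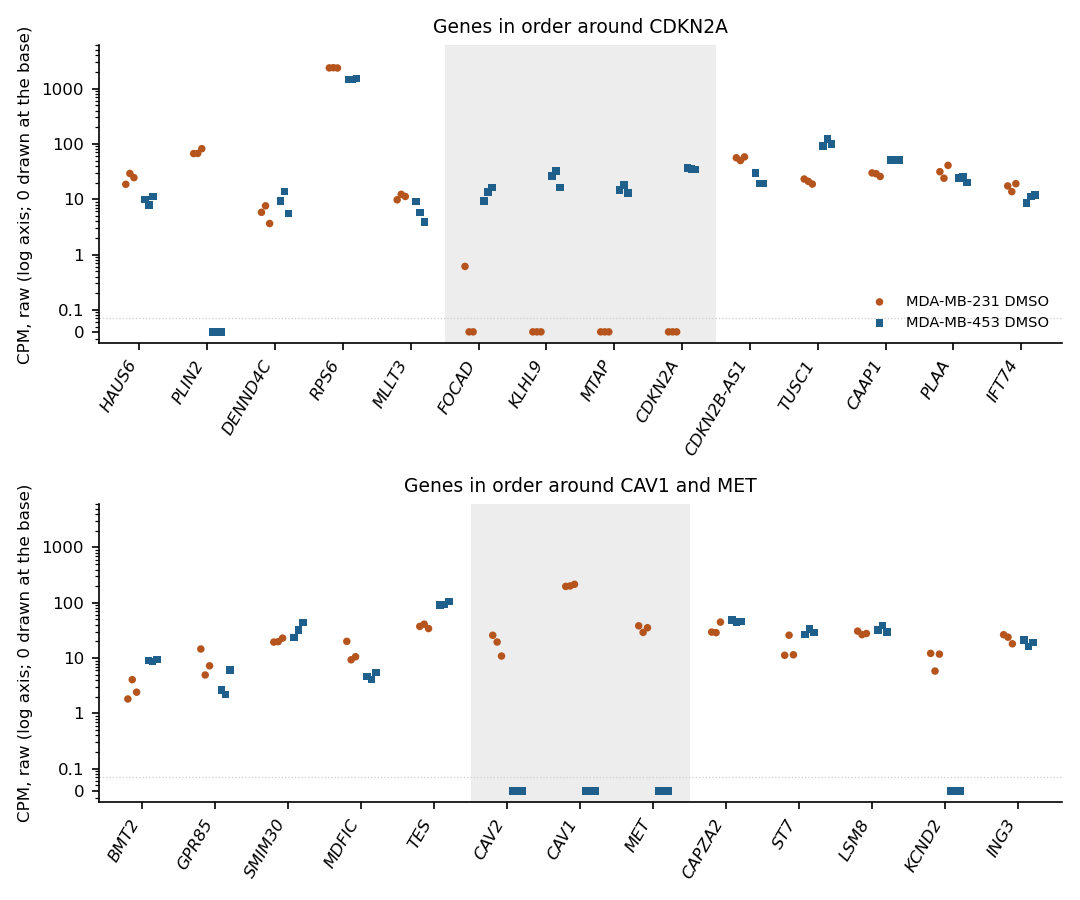
CPM in each DMSO culture of MDA-MB-231 (orange circles) and MDA-MB-453 (blue squares) for genes in their order along the chromosome, on a log axis with 0 drawn at the base and the silent run shaded. From FOCAD to CDKN2A the MDA-MB-231 points are at or near 0 and CDKN2B-AS1 is expressed, and from CAV2 to MET the MDA-MB-453 points are at 0 and the neighbours TES and CAPZA2 are expressed.

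The other runs in MDA-MB-231 were HOXC13, HOXC11 and HOXC-AS3 of the HOXC cluster (chromosome 12), 5 zinc finger genes on chromosome 19 (ZNF506, ZNF253, ZNF93, ZNF737 and ZNF85), ZNF295-AS1, ABCG1 and TFF3 (chromosome 21), CACNA1D, CHDH and IL17RB (chromosome 3), IRX4, IRX4-AS1 and IRX2 (chromosome 5), and 6 histone genes on chromosome 6 (H2BC8, H2AC8, H3C6, H1-3, H2BC9 and H3C8). HOXC11 had 52.2 ± 4.57 CPM in MDA-MB-453 and IRX2, a homeobox gene, 35.2 ± 7.12 CPM. The zinc finger genes (5.05 to 8.59 CPM) and the histone genes (5.09 to 14.8 CPM) were low in MDA-MB-453 too. Both kinds belong to families of related genes among which reads may be shared, so that their counts are uncertain. In MDA-MB-453 the other runs were DCLK1, SPART and SMAD9 on chromosome 13, and on chromosome 4 TLR6, FAM114A1, TMEM156 and KLHL5, and ANTXR2, PRDM8 and FGF5. FGF5, a growth factor, had 88.7 ± 8.93 CPM in MDA-MB-231, and ANTXR2, the receptor of anthrax toxin, 63.0 ± 5.27 CPM.

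The same difference between the lines can be read in libraries that share no sample with the DMSO comparison. In the 6 cultures given fulvestrant at 5 nM, 7667 of 11206 genes tested were called (68.4%). Of the 2666 genes called at least 4-fold in DMSO, 2537 were tested in both comparisons, 2535 of these had the same sign, 2507 were called in the same direction and 0 in the opposite one. Of all 8142 genes called, 7975 were tested in both, of which 6726 were called in the same direction and 24 in the opposite one.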

How the data were processed

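RNA of both cell lines was sequenced by the authors from transcript 3′ ends (QuantSeq 3′ FWD, single reads of 100 bases). Trimming by the authors used BBDuk 38.90, alignment to hg38 used STAR 2.7.5b, and reads were assigned to GENCODE v35 genes by featureCounts (Subread 2.0.1). The deposited table holds raw counts, with no normalisation, for 59609 gene symbols in 24 libraries, and 1 row that named no gene held 0 counts. The 6 DMSO libraries, 3 of each line and stated to be independent biological replicates, were taken by their labels.

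From these counts, levels were computed as CPM, counts scaled to a library total of 1000000. As only 3′ ends were read, levels are compared between lines, and where genes are ordered by level this is an order of tag counts. Genes were filtered with filterByExpr, which here needs about 2.92 CPM in 3 libraries, scaled by TMM and tested with edgeR 4.0.16 in R 4.3.3 (quasi-likelihood test, Benjamini-Hochberg adjustment over 11115 genes). A gene was called at an adjusted p below 0.05, and a second call asked for at least 4-fold as well. The biological coefficient of variation was 10.8%. Count ratios carry exact 95% intervals, which like the floor of 3 counts cover counting error only. On simulated counts for this comparison (11018 genes), 98 of 100 genes changed 2-fold and 100 of 100 changed 4-fold were recovered, and 9 of 10818 unchanged genes were called. The simulation changed few genes, evenly in both directions and only well-counted ones, with the same spread for all. It therefore cannot show how scaling behaves where most genes differ, as here, nor recovery near the filter level. DESeq2 1.42.0 served as an alternative, and its test was run without the filter on low counts.

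The comparison and its 15 gene lists (630 genes) were chosen with earlier results of these data known, so adjusted p values are given over all genes only. Genes were named by rule: from each list the 3 called genes with the largest change in each direction with at least 10 CPM in the higher line, the 10 with the largest change in each direction with at least 50 CPM and counts in both lines, the 10 silent genes of each line with the highest CPM in the other, and runs of at least 3 silent neighbours. Further list members are given as examples, and genes outside the rule are marked as chosen after their values were seen. The drug-treated libraries were used only to look at silent genes and at the line difference under fulvestrant. Some listed genes are not reported here.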

Additional observations from a re-analysis of the deposited data

How the results depend on the processing

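Line and medium cannot be told apart, and each line stands for 1 tumour. The 8142 called genes, of 11115 tested, were 9218 of 19892 with DESeq2's test and 9395 of 19892 with no filter on low counts. A smaller share was thus called where genes of low count were kept. With all 24 libraries in the fit, 8905 of 12750 were called. When a change of more than 2-fold was tested, 3943 of 11115 were called (2092 higher in MDA-MB-453, 1851 higher in MDA-MB-231). Under that last test 17 of the genes named were no longer called, CLDN12, CTNNB1, ITGA6 and JUN among them. The 2666 genes of at least 4-fold were 4020 with no filter, where more genes were tested, 3842 with DESeq2's test and 3529 with all 24 libraries. Leaving out each library in turn gave 8037 to 8141 called and 2906 to 2970 of at least 4-fold, with 210 to 241 genes silent in MDA-MB-231. For MDA-MB-453 the silent genes numbered 274 to 298. At 50 CPM or more in the other line, 68 and 69 genes were silent. Some list medians moved where listed genes of low count were kept, which was also so for DESeq2's test, run without the filter. With DESeq2's test and with no filter they were 4.30 and 4.30 for luminal apocrine markers, -7.51 and -7.52 for mesenchymal markers, and -1.90 and -2.68 for basal markers. For secreted cytokines they were -1.45 and -1.71, and for proteases and matrix -4.20 and -4.33.

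Samples with the same replicate number in both lines did not deviate together (correlations -0.0235, 0.00301 and -0.00602 over 6857 genes). No pairing by number was thus seen in the levels, which cannot show whether cultures of the same number were handled together. With the replicate block, 7930 genes were called, 2694 of them at least 4-fold, and 7619 under fulvestrant.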
